A study of Mus musculus with 9 samples.

Results

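The heart transcripts described here were 9 genes of the bone morphogenetic protein (BMP) pathway: the ligands Bmp10, Bmp4 and Bmp6, the receptor Bmpr2, the inhibitory Smads Smad6 and Smad7, and the targets Id1, Id2 and Id3. They were chosen by symbol from the 13890 genes of the count table, and the choice was made from their fold changes in these same libraries, so what follows for them is a description without a test. GENCODE M21 annotates all 9 as protein coding. They were all counted and all 9 passed the filter on low counts, which kept 13364 genes.

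The libraries came from heart RNA of male NSG mice, an immunodeficient strain that accepts human cells, which were 8 weeks old when the experiment began and were followed for 3 weeks. Whether the whole organ or a part of it was used for RNA is not given. Sham mice (S, animals 2, 3 and 5) received an intrasplenic injection of vehicle. Mice labelled HCT116 (T, animals 11, 12 and 15) are recorded as having received HCT116 cells, a human colorectal cancer line that forms liver metastases by this route. Mice labelled HCT116 + ACVR2B/Fc (A + T, animals 20, 21 and 22) are recorded as having received the same cells and weekly injections of ACVR2B/Fc, a soluble activin receptor type IIB joined to an antibody Fc fragment and made in CHO cells, which binds activins, myostatin and some BMPs. Hearts of mice given ACVR2B/Fc without tumour cells were not analysed here.

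Libraries held between 12392222 and 19732471 counts, and 3 counts corresponded to between 0.152 and 0.281 CPM, the number of counts relative to the total of the library. Levels are given as CPM over library sizes adjusted by the trimmed mean of M-values (TMM), so that a gene can be compared between libraries but not with another gene. The cardiomyocyte genes that define heart muscle were abundant in every library, with a summed level of 8 of them between 46327 and 77301 CPM. A pair of features of the libraries bear on the values below. First, a gene list supplied with the study gives, for ACVR2B/Fc without tumour cells, the fold changes that the libraries labelled T give against S. Either the sample labels or the columns of that list may be exchanged, which cannot be told apart here. The treatment behind the label T is therefore uncertain, and these are called the libraries labelled T. Second, the library of animal 22 held Scgb1a1 and Sftpb, secretory genes of airway and lung, at 1078 and 199 CPM, and that of animal 12 held Scgb1a1 at 79.9 CPM, whereas both genes were at or below 1.37 CPM in the other libraries. Fold changes of A + T are therefore given with and without animal 22. Because 1 fit over all libraries shares the estimate of the spread, animal 22 also enters the standard errors (SE) and P-values of T vs. S. Without it the SE of T vs. S was 0.37 for Bmp10, 0.11 for Smad6 and 0.08 for Id1, against 1.43, 0.24 and 0.17. For Id2 it was 0.12 both with and without that library.

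BMPs are secreted dimers that bring together type I and type II serine/threonine kinase receptors. The activated type I receptor phosphorylates Smad1, Smad5 and Smad9, which enter the nucleus with Smad4 and switch on target genes, among them the Id genes and Smad6 and Smad7, which feed back to restrain the pathway. In the adult heart Bmp10 is made chiefly by atrial myocytes and acts on endothelium through Acvrl1 and Bmpr2, while Bmp6 is known best as an endothelial signal that raises hepcidin in the liver. Id proteins lack a DNA-binding domain and hold basic helix-loop-helix factors in inactive dimers.

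Promoter sequence was taken from the RefSeq promoter table (GRCm38.p6) for 7 of the 9 genes, as the 250 bases before the transcription start, and 3 are shown, because they belong to the ligand, the inhibitory Smad and the target with the most distinct patterns. Capitals mark GGCGCC, a GC-rich element that Smad1 and Smad5 can bind, the Smad-binding element GTCTG, which reads as CAGAC on the other strand, and the NF-Y element CCAAT, which reads as ATTGG on the other strand. Bases that GENCODE M21 places in an exon of the gene are left out, which shortens the Id2 stretch to 89 bases. The stretches lie at chr6:87428744-87428993 on the plus strand for Bmp10, chr9:64022060-64022309 on the minus strand for Smad6 and chr12:25096254-25096342 on the minus strand for Id2.
Bmp10: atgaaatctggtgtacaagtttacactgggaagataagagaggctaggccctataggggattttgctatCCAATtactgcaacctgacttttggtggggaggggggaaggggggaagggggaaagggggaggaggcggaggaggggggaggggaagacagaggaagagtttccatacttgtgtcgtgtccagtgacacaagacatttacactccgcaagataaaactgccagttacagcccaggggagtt
Smad6: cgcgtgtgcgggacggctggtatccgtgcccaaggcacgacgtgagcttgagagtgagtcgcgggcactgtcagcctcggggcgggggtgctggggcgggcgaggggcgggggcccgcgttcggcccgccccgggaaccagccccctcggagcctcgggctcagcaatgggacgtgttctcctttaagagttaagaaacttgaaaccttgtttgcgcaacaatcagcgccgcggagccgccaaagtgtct
Id2: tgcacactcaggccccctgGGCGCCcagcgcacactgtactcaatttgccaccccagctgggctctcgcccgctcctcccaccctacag

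In the 250 bases, Bmp10 held 1 CCAAT and neither Smad element, and Smad6 and Bmp4 held none of the 3 motifs. Id2 held 1 GGCGCC and 3 CCAAT, the latter in the 161 bases not shown, which GENCODE M21 places in an exon of the gene. Of the other promoters, Id3 held 2 copies of GTCTG, Bmp6 held 1 GTCTG and Bmpr2 held 1 GGCGCC. For Id3, Bmp6 and Bmpr2, however, GENCODE M21 places all 250 bases in an exon of the gene. Of 32851 mouse promoters of this length, 9.59% held GGCGCC, 42.2% held GTCTG and 33.8% held CCAAT on either strand. Such matches describe the letters only.

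Bmp10 (chromosome 6 of GRCm38, 87428994 to 87437677) was the member with the widest range. Its level was 66.1, 158 and 91.8 CPM in the S hearts and 1.86, 1.13 and 1.78 CPM in the libraries labelled T. In A + T it was 0.247 and 0.359 CPM in animals 20 and 21, from 4 and 5 counts, and 51.5 CPM in animal 22, from 837 counts. Thus every library labelled T lay below every S library, by 66.4-fold between the means (105 ± 47.5 vs. 1.59 ± 0.400 CPM, mean ± SD, n = 3), and A + T was split between animals 20 and 21, which were lower still, and animal 22, which lay below the lowest S heart by less than the spread of S. In whole tissue, fewer cells of a type and less RNA per cell cannot be told apart.

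On the log2 scale the difference in Bmp10 was -6.07 (SE 1.43) in T vs. S, and it ranged from -6.31 to -5.65 as each library was left out. Against T, A + T differed by 3.48 (SE 1.47) with animal 22 and by -2.36 (SE 0.94) without it. Against S, A + T differed by -2.58 (SE 1.07) with animal 22 and -8.42 (SE 0.56) without it. The direction of A + T vs. T in Bmp10 thus rested on 1 library, that of animal 22.

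**Figure D1:**
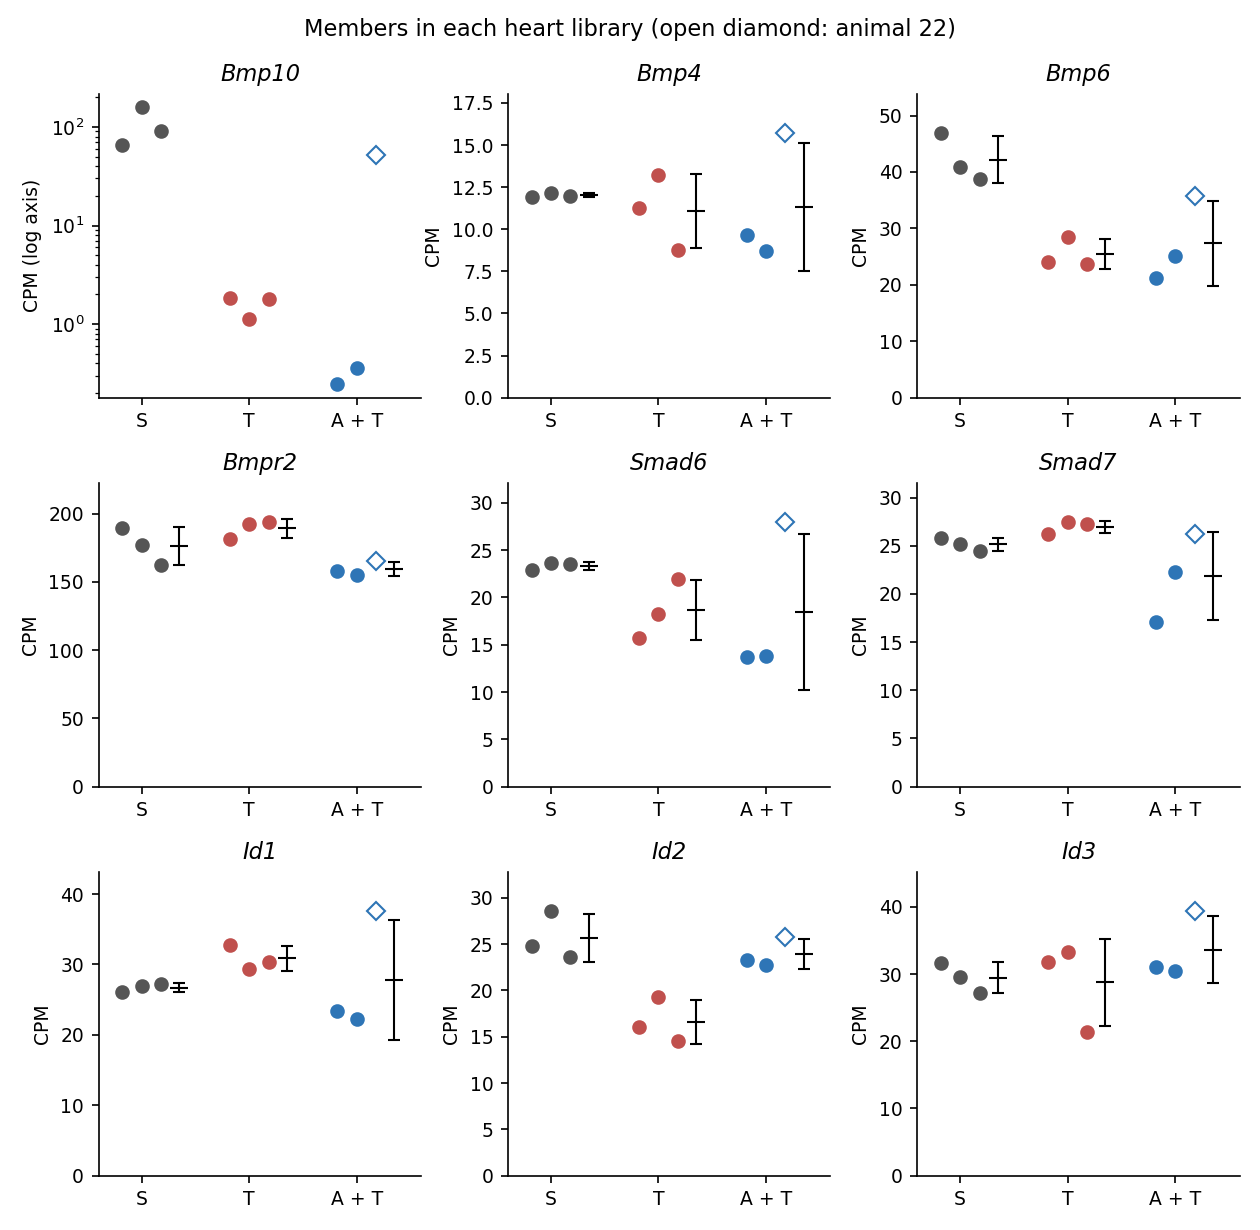
Level of each member in each of the 9 heart libraries (vertical axis, CPM; Bmp10 on a log axis), by group on the horizontal axis. Points are libraries, the open diamond is animal 22, and the black bar beside each group is the mean ± SD (n = 3), left out for Bmp10; the drop of Bmp10 in T, of Bmp6 in T and of Id2 in T alone, and the high position of animal 22 within A + T, can be read from the points.

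Because Bmp10 is an atrial gene and a heart sample may carry more or less atrium, it was set beside atrial myocyte genes. The summed level of 7 atrial genes was 3190 to 3250 CPM in S, 953 to 4956 CPM in the libraries labelled T and 915 to 2226 CPM in A + T. All 7 had a lower mean in T than in S, with a median log2 fold change of -0.42, and none passed an adjusted P of 0.05. In A + T vs. S the median was -1.02 (-1.28 without animal 22), and again none passed. A + T did not overlap with S for all 7, where 32.4% of all genes tested did not overlap. The heart of animal 12 had the highest atrial sum of all, with Myl7, the atrial regulatory light chain, at 410 CPM against 308 to 354 CPM in S, and its Bmp10 was the lowest of the libraries labelled T at 1.13 CPM. Relative to Myl7, Bmp10 was 0.215, 0.511 and 0.260 in S, 0.0175, 0.00275 and 0.0766 in T, and 0.00572, 0.00159 and 0.213 in animals 20, 21 and 22. Relative to Myl4, the atrial essential light chain, it was 0.126, 0.301 and 0.163 in S, 0.0113, 0.00199 and 0.0615 in T, and 0.00417, 0.00141 and 0.137 in animals 20, 21 and 22. Every library labelled T lay below every S library in both ratios, with animal 15 the closest to S. The atrial sums of animals 11 and 15 were 1702 and 953 CPM, below all S hearts. Which part of the atria each sample held is not given, and the ratios to Myl7 and Myl4 do not show it. How far the amount or the part of atrium entered the values of Bmp10 was not tested.

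**Figure D2:**
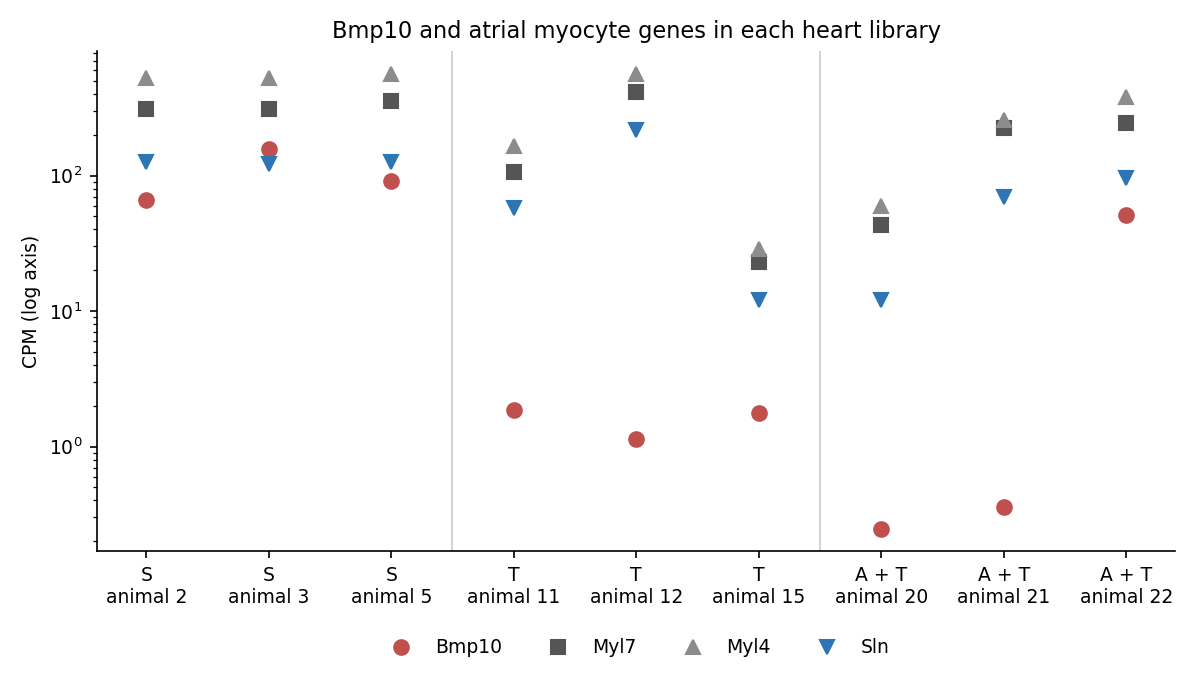
Bmp10 with the atrial myocyte genes Myl7, Myl4 and Sln in each of the 9 heart libraries (vertical axis, CPM on a log axis; horizontal axis, group and animal). Bmp10 stands at 0.126 to 0.301 of Myl4 in S and 0.137 in animal 22, and at 0.00141 to 0.0615 of it in the other 5 libraries.

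Bmp6 (chromosome 13, 38345107 to 38500302) was lower in both groups labelled as carrying HCT116 cells. The S hearts held 46.9, 40.9 and 38.8 CPM, the libraries labelled T 24.0, 28.5 and 23.8 CPM, and the A + T hearts 21.3, 25.0 and 35.8 CPM, the last in animal 22. Neither group overlapped with S, and T and A + T overlapped with each other. The mean was 39.8% lower in T than in S (log2 fold change -0.73, SE 0.17) and 35.1% lower in A + T than in S (-0.62, SE 0.17, or -0.86, SE 0.12, without animal 22), and A + T vs. T gave 0.11 (SE 0.17, or -0.14, SE 0.12, without animal 22). As each library was left out, the fall in T vs. S ranged from -0.82 to -0.64 and that in A + T vs. S from -0.86 to -0.47.

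Bmp4 (chromosome 14, 46383520 to 46390669), a ligand of mesenchymal and endothelial cells, differed little. Its level was between 11.9 and 12.2 CPM in S, 11.3, 13.2 and 8.79 CPM in T, and 9.64, 8.68 and 15.7 CPM in A + T. The S libraries lay within the range of both other groups, and the log2 fold changes were -0.11 (SE 0.22), 0.03 (SE 0.22) and -0.08 (SE 0.21) for T against S, A + T against T and A + T against S. Animal 22 again held the highest value of its group, and without it the comparisons of A + T with T and with S gave -0.29 and -0.39.

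Bmpr2 (chromosome 1, 59763400 to 59879014), the type II receptor for BMPs, varied within a narrow range. Its level was 190, 177 and 162 CPM in S, 181, 192 and 194 CPM in T, and 158, 155 and 165 CPM in A + T. The A + T libraries all lay below those labelled T, by 15.7% between means (log2 fold change -0.25, SE 0.08, and -0.28 without animal 22), while both groups overlapped with S (0.10, SE 0.08, for T and -0.15, SE 0.08, for A + T, or -0.17 without animal 22).

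Of the inhibitory Smads, Smad6 (chromosome 9, 63953076 to 64022059), which blocks BMP receptors in particular, was 22.9, 23.6 and 23.6 CPM in S. It was 15.7, 18.3 and 22 CPM in T and 13.7, 13.8 and 28.0 CPM in A + T. The 3 sham hearts were nearly equal, every library labelled T lay below them (log2 fold change -0.33, SE 0.24), and A + T fell into animals 20 and 21, lower than all others, and animal 22, higher than all others. A + T vs. S accordingly gave -0.34 (SE 0.24) with animal 22 and -0.76 (SE 0.13) without it, and A + T vs. T -0.00 (SE 0.25) and -0.44 (SE 0.13). Endothelial cells are a known source of Smad6. Their genes had a summed level of 1256 to 1417 CPM in S, 778 to 993 CPM in T and 947 to 1177 CPM in A + T. Of the 11 genes, 6 were lower in T vs. S at an adjusted P under 0.05, where 11% of all genes tested were lower. The part of these cells in the values of Smad6, Bmp6 and the Id genes was not tested.

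Smad7 (chromosome 18, 75367529 to 75395935), which restrains both BMP and TGF-beta receptors, was 25.8, 25.2 and 24.4 CPM in S, 26.3, 27.5 and 27.2 CPM in T, and 17.1, 22.3 and 26.2 CPM in A + T. Libraries labelled T lay just above all those of the other groups. The differences were small, with a log2 fold change of 0.10 (SE 0.13) in T vs. S, -0.30 (SE 0.13) in A + T vs. T and -0.20 (SE 0.13) in A + T vs. S. Without animal 22 both comparisons of A + T were lower still, at -0.46 (SE 0.11) and -0.35 (SE 0.11).

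The 3 Id genes did not move together. Id2 (chromosome 12, 25093799 to 25097140) was 24.8, 28.6 and 23.6 CPM in S, 16.0, 19.3 and 14.5 CPM in T, and 23.3, 22.7 and 25.8 CPM in A + T. The libraries labelled T lay below all others, and A + T overlapped with S. Its mean was 35.3% lower in T than in S (log2 fold change -0.62, SE 0.12) and 44.3% higher in A + T than in T (0.52, SE 0.12), and A + T vs. S gave -0.10 (SE 0.12). Without animal 22 the comparisons of A + T with T and with S gave 0.46 (SE 0.13) and -0.15 (SE 0.13). Id2 was thus lower in every library labelled T than in any library of the other groups.

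Id1 (chromosome 2, 152736251 to 152737410), the Id gene that BMP9 and BMP10 raise most readily in endothelium, was 26.0, 26.9 and 27.3 CPM in S and 32.8, 29.4 and 30.3 CPM in T. It was 23.4 and 22.3 CPM in animals 20 and 21 and 37.6 CPM in animal 22. Every library labelled T thus lay above S (log2 fold change 0.21, SE 0.17), and A + T held both the lowest values and the highest. The difference of A + T from T was -0.15 (SE 0.17) with animal 22 and -0.44 (SE 0.09) without it, and from S it was 0.06 (SE 0.17) and -0.22 (SE 0.09).

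Id3 (chromosome 4, 136143497 to 136145755) was 31.7, 29.6 and 27.1 CPM in S, 31.8, 33.2 and 21.3 CPM in T, and 31.0, 30.5 and 39.4 CPM in A + T. Its groups overlapped in all 3 comparisons, with log2 fold changes of -0.03 (SE 0.16), 0.22 (SE 0.16) and 0.19 (SE 0.16), the last pair 0.08 and 0.07 without animal 22. The ratio of Id2 to Id1 counts showed the difference within the family. It was 0.953, 1.06 and 0.865 in S, 0.489, 0.655 and 0.478 in T, 0.997 and 1.02 in animals 20 and 21, and 0.687 in animal 22. The libraries labelled T, and to a lesser degree animal 22, therefore held less Id2 for each Id1 count than the S hearts did.

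**Figure D3:**
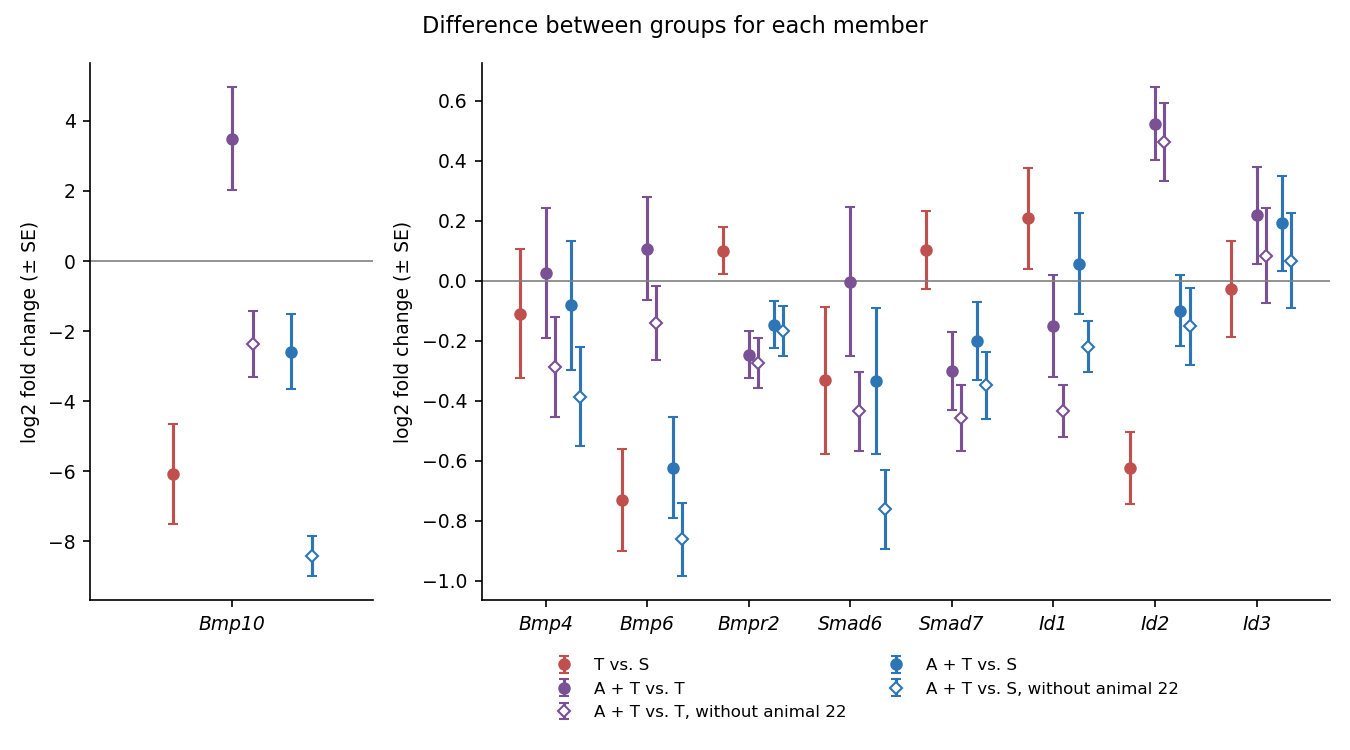
log2 fold change of each member with its standard error (vertical axis) for T against S, A + T against T and A + T against S, Bmp10 on an axis of its own at the left. Filled circles use all 9 libraries and open diamonds leave out animal 22; leaving it out lowers each of the A + T values shown, most for Bmp10 and Smad6.

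Counted together in the fit across all genes, 3 members were lower in T vs. S at an adjusted P under 0.05 (Bmp10, Bmp6 and Id2) and 0 were higher, where 11% of all genes tested were lower and 10.3% higher. Between A + T and T, 0 were lower and 1 was higher (Id2), against 2.79% and 3.09% of all genes. Between A + T and S, 1 was lower (Bmp6) and 0 higher, against 3.64% and 4.67%. In T vs. S, Id2 stayed past the threshold in all 9 fits that left out 1 library and Bmp10 and Bmp6 in 7 each; Bmp10 did not without animal 11 (log2 fold change -6.23) or 12 (-5.85), nor Bmp6 without animal 2 (-0.64) or 11 (-0.69). Id2 in A + T vs. T was past it in 3 of the 9, not without animals 2, 11, 15, 20, 21 or 22 (0.44 to 0.56), and Bmp6 in A + T vs. S in 1 of the 9, that without animal 22. Without animal 22, Smad7 and Id1 were lower in A + T vs. T and Bmp10, Bmp6 and Smad6 in A + T vs. S, where 3.7% and 2.92% of all genes were lower and 3.83% and 3.82% higher. T did not overlap with S for 6 of the 9, A + T not with T for 3 and A + T not with S for 2, where 42.6%, 25.4% and 32.4% of all genes did not overlap. Since the members were picked from these fold changes, nothing is read from the counts, and each pair of comparisons shares the libraries of a group.

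To compare the members with each other, the deposited normalized values were used on their linear scale. How they were made is not given, but the ratio of CPM to them rose with the length of each gene's merged GENCODE M21 exons (r = 0.789 on log2 scales across 12263 genes, which are not independent replicates), so they are read as levels per length. The length they imply for Bmp10 was 1.32 kb, against 4.49 kb of merged exons. On this scale Bmp10 was, in S, the most abundant member at 79.6 ± 36.0 (mean ± SD, n = 3), above Id3 at 30.8 ± 2.38 and Id1 at 28.6 ± 0.672, which overlapped. Id2 at 20.1 ± 2.05, Bmp6 at 17.4 ± 1.73 and Bmpr2 at 15.8 ± 1.24 followed, each overlapping with the next, and then Smad6 at 7.86 ± 0.144, Bmp4 at 6.06 ± 0.0663 and Smad7 at 5.65 ± 0.154, which were apart. In the libraries labelled T the order was led by Id1 at 33.0 ± 1.95 and Id3 at 30.2 ± 6.77, and Bmp10 was last at 1.30 ± 0.304, below Bmp4 at 5.60 ± 1.09. Of the 3 ligands, Bmp10 was thus the most abundant in S and Bmp6 in T, where it stood at 10.5 ± 1.08. In A + T, Id3 and Id1 led again, Id2 came next, and the other members overlapped from each rank to the next, with Bmp10 spread from 0.284 to 38.9. Without animal 22 the same 3 Id genes led and Bmp10 was last, at or below 0.368. By CPM per kb of merged exons, a scale added after the data were seen, Bmp10 was again first in S and last in T by mean. Its S range of 14.7 to 35.2 overlapped with those of Id1 and Id3. On this scale Id1 lay above Id3 without overlap in S (22.4 to 23.5 vs. 15.1 to 17.7) and in T (25.4 to 28.3 vs. 11.9 to 18.5). Id1 also led A + T by mean (23.9 vs. 18.8 for Id3). By mean, Bmp6 came before Id2 and Smad7 before Bmp4 in S, and Smad7 before Smad6 in T. The order of these genes thus depends on the length used.

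**Figure D4:**
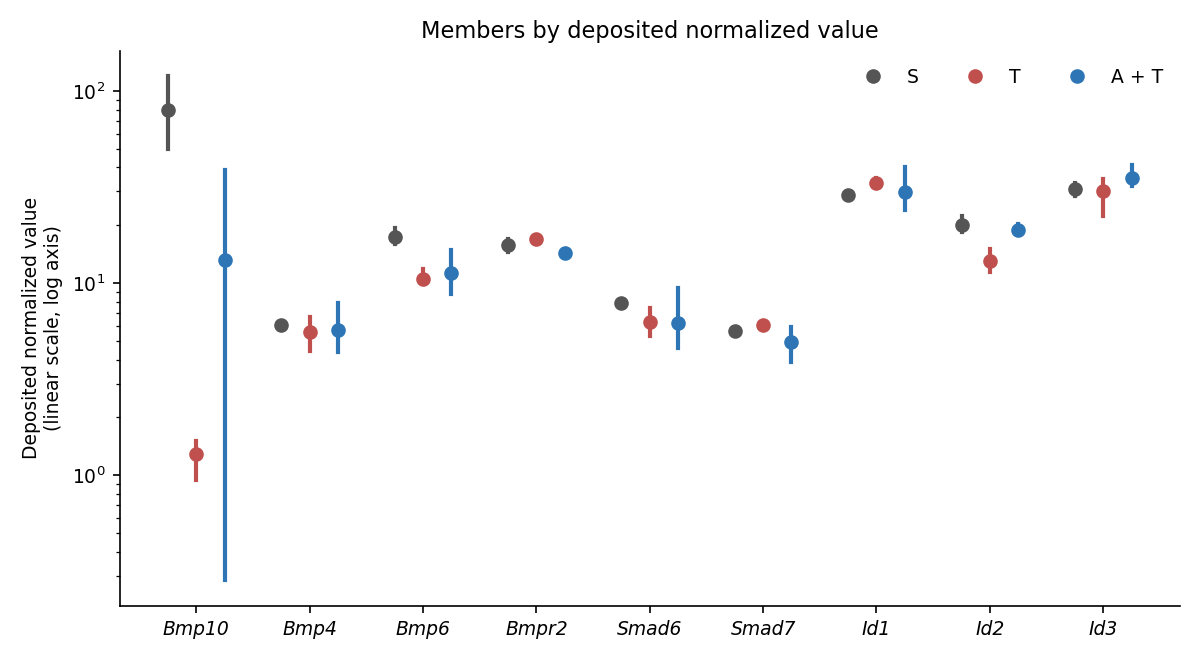
Level of each member as the deposited normalized value (linear scale, drawn on a log axis) in S, T and A + T. Points are means of 3 libraries and vertical lines run from the lowest to the highest library; Bmp10 is the highest member in S and the lowest in T.

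The rest of the pathway was followed through 56 further genes listed by role, of which 47 were in the count table and 45 were tested. In T vs. S, 12 of the 45 were lower and 1 higher at an adjusted P under 0.05, 32 did not pass, and the median log2 fold change was -0.22, where 11% of all genes tested were lower and 10.3% higher and their median was -0.0038. Between A + T and T 0 were lower and 1 was higher, against 2.79% and 3.09% of all genes, with a median of 0.0045 (0.0098 over all genes). Between A + T and S 5 were lower and 0 higher, against 3.64% and 4.67%, with a median of -0.19 (0.0034 over all genes). Leaving out animal 22 gave 2 lower and 2 higher against T, where 3.7% and 3.83% of all genes were, and 4 lower and 0 higher against S, where 2.92% and 3.82% were. Adjusted P-values below are from edgeR's quasi-likelihood test over all genes.

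The other 5 ligands tested were at or below 4.19 CPM in every library, and none passed in any comparison with all libraries. Bmp2, which signals through Bmpr1a, was 2.43, 2.89 and 3.61 CPM in S and 1.49, 2.26 and 1.87 CPM in T (log2 fold change -0.66, SE 0.23, adjusted P = 0.0696). Gdf2, the close relative of Bmp10 known as BMP9, was at or below 1.54 CPM in every library. In T vs. S all 5 had a negative log2 fold change in the fit with all libraries, as did Bmp10, Bmp6 and Bmp4.

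Among receptors and co-receptors 4 of 9 were lower in T vs. S, where 11% of all genes tested were lower. Bmpr1b, which the filter removed and which was not tested, went the other way at low counts. It was 0.221, 0.254 and 0.145 CPM in S (4, 5 and 2 counts) and 1.18, 1.37 and 1.03 CPM in T (19, 23 and 11 counts). In A + T it was 0.433, 0.359 and 0.924 CPM (7, 5 and 15 counts). Acvr1, the type I receptor ALK2, was 22.3, 23.3 and 21.6 CPM in S, 11.7, 12.3 and 15.5 CPM in T, and 15.6, 15.7 and 17.4 CPM in A + T. It fell by 0.77 on the log2 scale in T vs. S (SE 0.11, adjusted P = 0.00143) and by 0.47 in A + T vs. S (SE 0.11, adjusted P = 0.0324, or -0.51 without animal 22). The A + T call was lost without animals 2, 3, 5, 20 or 21, with adjusted P-values of 0.0705 to 0.113. Eng, endoglin, an endothelial co-receptor for BMP9 and BMP10, was 241 to 283 CPM in S and 130 to 182 CPM in T and fell by 0.72 (SE 0.14, adjusted P = 0.00575). Rgmb, a membrane-anchored BMP co-receptor, fell by 0.54 (SE 0.10, adjusted P = 0.00548). Hfe2, hemojuvelin, the co-receptor through which Bmp6 acts on hepcidin, fell by 0.38 (SE 0.09, adjusted P = 0.0140, and 0.0610 without animal 5). Acvr2b, whose ectodomain the injected protein carries, was 1.45 to 1.98 CPM in S, 1.49 to 2.17 CPM in T and 2.10 to 3.30 CPM in A + T and did not pass in any comparison.

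Of the Smads that carry the signal, Smad1, Smad5, Smad9 and Smad4 passed in no comparison. Smad5 was 65.5, 64.3 and 61.9 CPM in S, 59.2, 58.5 and 56.7 CPM in T, and 59.8, 59.8 and 56.1 CPM in A + T. Both other groups thus lay below S (log2 fold change -0.14, SE 0.07, adjusted P = 0.171 for T, and -0.13, SE 0.07, adjusted P = 0.255 for A + T, or -0.09 without animal 22). Smad4, the partner shared with TGF-beta signals, was 64.4 to 68.3 CPM in S and 52.0 to 61.8 CPM in A + T, which did not overlap (-0.19, SE 0.09, adjusted P = 0.226, or -0.10 without animal 22), and T overlapped with both. Smad1 was 15.7 to 17.0 CPM in T and 13.4 to 15.3 CPM in A + T, also without overlap (-0.18, SE 0.11, adjusted P = 0.355, or -0.13 without animal 22). Smad9, at 4.59 to 7.46 CPM over the 9 libraries, overlapped in all 3 comparisons.

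Secreted antagonists and modulators held the largest falls of the list outside the members. Sost, sclerostin, known as a Wnt antagonist that also binds BMPs, was 3.70, 1.93 and 3.69 CPM in S, 0.495, 0.773 and 0.561 CPM in T, and 0.185, 0.574 and 1.05 CPM in A + T. Its values came from few counts: 67, 38 and 51 in S, 8, 13 and 6 in T, and 3, 8 and 17 in A + T. The level in animal 20 thus lay at the limit of 3 counts. Sost fell by 2.31 in T vs. S (SE 0.48, adjusted P = 0.00720) and by 2.34 in A + T vs. S (SE 0.47, adjusted P = 0.0168). The latter adjusted P was 0.0732 without animal 2 and 0.0536 without animal 5. Without animal 22 the fold change in A + T vs. S was -3.03, from the 3 and 8 counts of animals 20 and 21. Fstl1, a follistatin-like glycoprotein made by fibroblasts and epicardium, was 109 to 114 CPM in S and 49.8 to 57.3 CPM in T and fell by 1.09 (SE 0.18, adjusted P = 0.00232). Kcp, kielin/chordin-like protein, which increases BMP signalling, fell by 1.61 (SE 0.41, adjusted P = 0.0202), with 0.0770, 0.0726 and 0.0691 without animals 2, 11 or 12. Chrd, chordin, which traps BMPs, passed in A + T vs. S, where it fell by 0.87 (SE 0.22, adjusted P = 0.0390, or -0.77 without animal 22), and its adjusted P was 0.0582 to 0.148 as each of the 6 libraries compared was left out. Bmper, a BMP-binding modulator of endothelium named here after its values were seen, fell by 0.66 in T vs. S (SE 0.19, adjusted P = 0.0338). With all libraries it was the 1 gene that passed in A + T vs. T (log2 fold change 0.74, SE 0.19, adjusted P = 0.0498). In that comparison it passed in 1 of the 9 fits that left out 1 library, that without animal 21. Its adjusted P reached 0.162 without animal 11 and was 0.0882 without animal 22 (0.66 on the log2 scale). Without animal 22, other genes of this role passed in A + T vs. T, none of which passed with all libraries. Kcp (log2 fold change 1.53, SE 0.29, adjusted P = 0.0134) and Fstl1 (0.74, SE 0.18, adjusted P = 0.0327) were higher. Fstl3 was lower (-0.97, SE 0.22, adjusted P = 0.0275). Of the fibroblast genes, 7 of 7 were lower in T vs. S and 5 of 7 (6 without animal 22) higher in A + T vs. T at an adjusted P under 0.05. Over all genes tested, 11% were lower in T vs. S and 3.09% higher in A + T vs. T (3.83% without animal 22). The fibroblast genes had a summed level of 1715 to 1885 CPM in S, 894 to 1033 CPM in T and 1239 to 1955 CPM in A + T. Sost and Chrd did not rise in A + T vs. T (-0.03 and -0.39, or -0.73 and -0.30 without animal 22). The part of fibroblasts in the values of Fstl1, Kcp and Bmper was not tested.

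Of 8 other inhibitors inside the cell or at its membrane, 3 were lower in T vs. S and 2 in A + T vs. S. Over all genes tested, 11% and 3.64% were lower in these comparisons. Bambi, a decoy receptor without a kinase domain, was 22.7, 25.8 and 22.2 CPM in S, 17.3, 13.4 and 11.6 CPM in T, and 15.3, 13.6 and 17.9 CPM in A + T. It fell by 0.73 in T vs. S (SE 0.15, adjusted P = 0.00742) and by 0.59 in A + T vs. S (SE 0.15, adjusted P = 0.0388, 0.0747 to 0.133 without animals 2, 3, 5, 20 or 21, and -0.70 without animal 22). Ski, a nuclear co-repressor of Smads, fell by 0.36 in T vs. S (SE 0.10, adjusted P = 0.0295) and by 0.43 in A + T vs. S (SE 0.10, adjusted P = 0.0304, or -0.38 without animal 22). The call in T vs. S was lost without animals 2, 5, 11 or 12, and that in A + T vs. S as each of its 6 libraries was left out, with adjusted P-values up to 0.112 and 0.114, both without animal 2. Smurf2, a ubiquitin ligase that acts with Smad7, fell by 0.26 in T vs. S (SE 0.08, adjusted P = 0.0408), a call that 7 of the 9 fits with 1 library left out lost, with an adjusted P up to 0.135 (without animal 3), and that held without animals 11 or 22.

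Among 6 other targets, Atoh8, a transcription factor gene that BMP signals raise in endothelium and liver, was the only gene of the 45 to pass as higher in T vs. S. It was 6.96, 8.93 and 9.18 CPM in S, 21.4, 23.5 and 14.7 CPM in T, and 10.1, 14.1 and 15.7 CPM in A + T. Libraries labelled T and A + T all lay above S (log2 fold change 1.26, SE 0.21, adjusted P = 0.00249 in T vs. S and 0.67, SE 0.21, adjusted P = 0.0757 in A + T vs. S, or 0.53 without animal 22). Msx1, a homeobox gene downstream of BMPs in development, fell by 0.96 in T vs. S (SE 0.24, adjusted P = 0.0172, and 0.0615 and 0.0635 without animals 5 or 11). Tmem100, an endothelial target of BMP9 and BMP10, was 13.1 to 18.5 CPM in S and 18.7 to 36.9 CPM in T, 11.7 and 11.9 CPM in animals 20 and 21 and 45.6 CPM in animal 22. Thus Id1, Atoh8 and Tmem100 were each higher in every library labelled T than in every S library, while Id2 and Msx1 were lower in every such library. Id3, Id4, Hey1 and Tbx20 overlapped between T and S, and 42.6% of all genes tested did not overlap. With all libraries, Id1 and Tmem100 did not pass in T vs. S (adjusted P = 0.415 and 0.307). Without animal 22 their adjusted P was 0.0556 and 0.0294. Tmem100 gave a log2 fold change of 0.72 (SE 0.47) in T vs. S with all libraries. In A + T vs. T it gave -0.21 (SE 0.47) with all libraries and did not pass. Without animal 22 it was lower there (-1.18, SE 0.25, adjusted P = 0.0219).

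**Figure D5:**
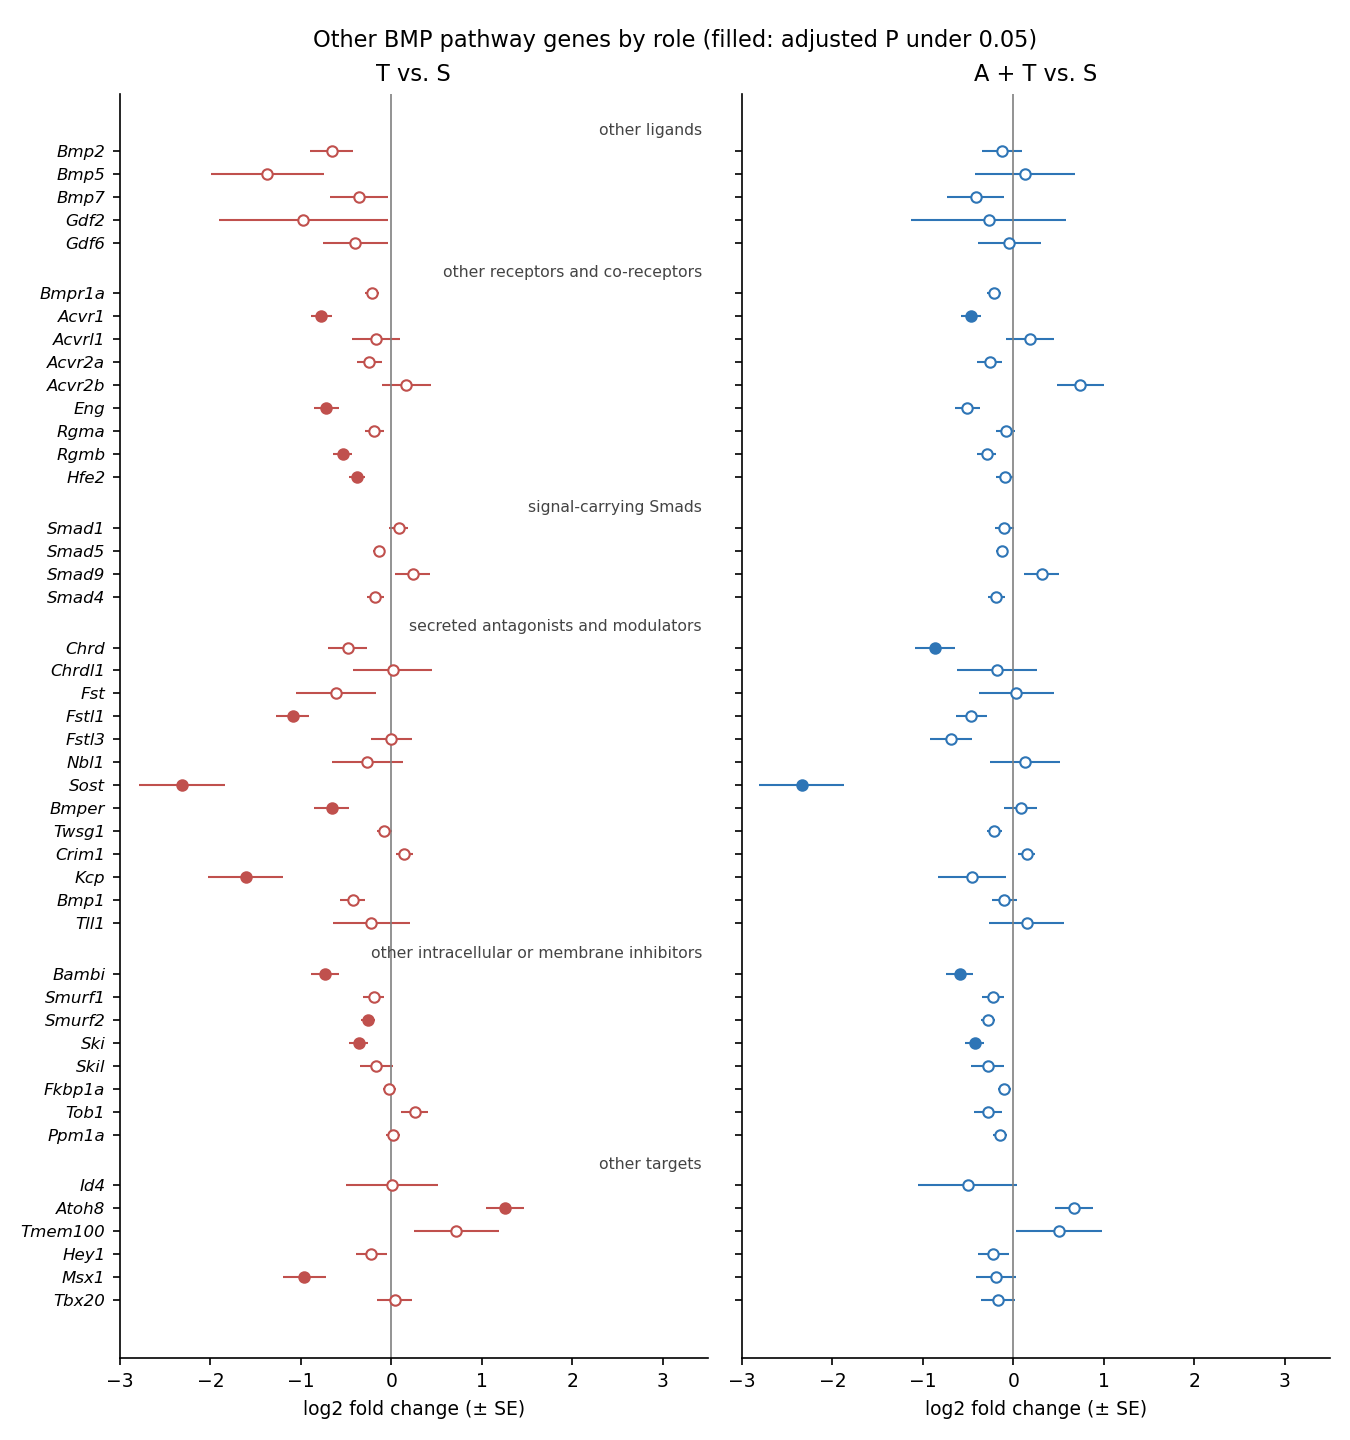
log2 fold change with its standard error (horizontal axis) of the 45 tested pathway genes outside the members, grouped by role on the vertical axis, in T vs. S at the left and A + T vs. S at the right. Filled points have an adjusted P under 0.05; 12 lie to the left and 1 to the right of 0 in T vs. S, and 5 to the left in A + T vs. S.

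The library of animal 22 was the highest of A + T for all 9 members and stood out for a receptor of the same branch. Acvrl1, the type I receptor for BMP9 and BMP10, was 62.9 CPM there and 27.8 to 41.0 CPM in the other 8 libraries. Mesothelial genes summed to 145 CPM in animal 22 and to between 27.4 and 98.1 CPM elsewhere. The cardiomyocyte genes summed to 46327 CPM in animal 22, the lowest of all libraries, and to between 55241 and 77301 CPM elsewhere. The part of lung, airway or mesothelial tissue in the values of animal 22 was not tested.

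By Pearson correlation of log2 CPM over the 9 libraries, which share the 3 groups and the high library of animal 22, the genes whose pattern was most like that of Bmp10 were Doc2g (r = 0.970), Raly (0.964) and Osgin1 (0.957) among 12669 genes compared. For Bmp6 they were Ece1, the endothelin-converting enzyme (0.964), Epn2 (0.958) and Fam49a (0.953). For Smad6 they were Ttc9 (0.976), Arf2 (0.942) and E2f5 (0.936), and for Id1 they were Bud31 (0.964), Prmt1 (0.948) and Lamb3 (0.943).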

How the data were processed

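Heart RNA of 9 mice in 3 groups (S, T and A + T) was analysed. Groups and animal numbers come from the sample labels. The authors extracted total RNA, enriched mRNA, sequenced 75-base paired ends, aligned them to mm10 with STAR and assigned uniquely mapped pairs to RefSeq genes with strand-specific featureCounts; they deposited these raw counts per gene. They also deposited normalized values on a log2 scale. For each gene these differed from log2 CPM by a constant (median SD over libraries 0.00247, 10021 genes), and that constant was set beside the length of merged GENCODE exons; how they were made is not given in the sources used here. Every per-sample column was used.

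The filter removed 526 of 13890 genes, those below 0.5 CPM in over 4 libraries. The 3 comparisons among the groups were fitted with edgeR 4.0.16 (R 4.3.3), TMM normalization and its quasi-likelihood test on all 9 libraries, with Benjamini-Hochberg adjustment over 13364 genes and a threshold of 0.05. P-values measure the spread between animals, 3 in each group. That spread is estimated over all 3 groups at once, so the library of animal 22 also enters the P-values of T vs. S. The same steps were tested on simulated data. Rn45s took 4.57 to 19.6% of counts. Depth is given in the report, and limits of 3 counts cover counting error only, since reads carried no molecular identifiers. Coordinates come from GENCODE M21 on GRCm38, and promoters from RefSeq. The members and lists were chosen with earlier results of these data known. Named in each role were genes with an adjusted P under 0.05 in any comparison, at most the 4 with the largest fold change; other genes are given for their role or for animal 22 and were chosen after their values were seen. Bmp3, Bmp8a, Bmp8b, Gdf5, Nog, Chrdl2, Grem1, Sostdc1 and Msx2 were not analysed here, and the filter removed Gdf7 and Bmpr1b. A gene of the pathway list is not reported here and was left out of the counts over it. Genes most like a member had a mean of at least 1 CPM and were compared on log2(CPM + 0.5). Alternatives were limma 3.58.1 on the deposited log2 values, DESeq2 1.42.0, RLE size factors, library totals, a fit of only the groups compared, a minimum of 10 counts per library, no filter, Rn45s left out, and each animal left out. Python 3.11.15 and matplotlib 3.10.9 drew the figures.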

Additional observations from a re-analysis of the deposited data

How the results depend on the processing

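Over 17 alternative fits, 743 values of single genes were recomputed: 672 kept their size and their side of the threshold, 51 no longer passed, 20 moved by more than the spread between replicates and 0 called values changed sign. Members past the threshold in T vs. S numbered 3 and ranged from 1 to 3 as each library was left out, 1 without animal 11; the 13 other pathway genes ranged from 8 (without animal 5) to 17. In A + T vs. T the 1 member became 2 with DESeq2 and 0 with library totals or only the groups compared, and 0 to 2 with a library left out, and the 1 other pathway gene became 3 with DESeq2 and 0 with library totals, no filter, only the groups compared or limma, and 0 to 4 with a library left out. In A + T vs. S the 1 member became 2 with limma and 0 with library totals or only the groups compared, and 0 to 3 with a library left out, and the 5 other pathway genes became 8 with DESeq2 and 2 with library totals, and 0 to 7 with a library left out. The cause was not tested. limma on the deposited values gave 0.33 for Bmp10 in A + T vs. T and -5.55 in A + T vs. S. No paired analysis was possible because the groups share no animal number. At 3 counts the limit is 0.152 to 0.281 CPM. Bmp10 in animals 20 and 21 lay close to it, and Sost in animal 20 lay at it.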
